A study of Mus musculus with 12 samples.

Results

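The cytokine system of the aged mouse hippocampus was examined through the 46 genes, of 770 on the nCounter panel, whose symbols name chemokines (Ccl, Cxcl), chemokine receptors (Ccr, Cxcr), interleukins and interleukin receptors, members of the TNF and TNF receptor superfamilies, TGF-beta, colony stimulating factors, interferons, LIF or oncostatin M, or their receptors. The members were taken by symbol alone, without Csf1r, and comprised 18 ligands, 1 secreted antagonist (Il1rn) and 27 receptors or receptor subunits. In the nCounter assay, barcoded probes bound to RNA are counted one by one without amplification. The samples were total RNA of the hippocampus from 12 mice of the C57BL6/J strain aged 13 months: 3 mtOGG1 females, 3 mtOGG1 males, 3 control females and 3 control males. By the series title the mtOGG1 mice express OGG1, an enzyme that removes oxidised guanine from DNA, in mitochondria; the promoter of the transgene and what the control mice carry are not given in the sources used here. The labels number the mice within a group, and p-values measure the spread between these samples.

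Levels are the deposited normalized counts, in which every value under 20 had been raised to 20. This value is called the floor. Each value above the floor is a whole count times 1 factor per mouse, so that the floor stood at between 15.8 and 24.4 counts, above the highest negative control of the same mouse in all 12 (8 to 14 counts). Summed over the genes above the floor, a mouse had 298642 to 359384 counts in the mtOGG1 groups and 281838 to 418467 in the control groups. Levels of different genes are not compared, because each probe binds with its own efficiency. A gene at the floor read 20 or less after scaling, which may still exceed the negative controls, and it is not shown to be absent.

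Cytokines are secreted or membrane-bound proteins that cells release to act on neighbours carrying the matching receptor. Many of them, such as TNF and interleukin 1, are transcribed at low levels in resting tissue and strongly induced by infection or injury, whereas their receptors are often made constitutively. In the brain, microglia are a main source of inflammatory cytokines, and neurons, astrocytes and endothelial cells carry receptors that respond to them.

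Receptors exceeded the floor more often than ligands. Of the 27 receptors, 16 exceeded the floor in at least 3 mice and 12 did so in all 12 mice. Of the 18 ligands, 4 exceeded it in at least 3 mice and 3 in all 12. The ligands above the floor in every mouse were Csf1 (macrophage colony stimulating factor, on which microglia depend), Tgfb1 (transforming growth factor beta 1) and Tnfsf12 (TWEAK, a TNF family ligand). The fourth, Tnfsf10 (TRAIL, a death ligand), exceeded it in 3 mice. The gap depended on the threshold, as 8 of the 27 receptors and 3 of the 18 ligands exceeded 50 in at least 3 mice. Some of the 16 receptors stood close to the floor, with highest levels of 25.8 for Tnfrsf1b and 28.4 for Il2rg. At the other end, 12 ligands and 7 receptors, and the antagonist Il1rn, stood at the floor in all 12 mice. Of all 46 members 20 exceeded the floor in at least 3 mice, while 79% of the 770 genes did so, and 43.5% of the members stood at the floor in every mouse, against 15.3% of the 724 genes that are no member. These counts describe the panel's choice of genes and were not tested.

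**Figure D1:**
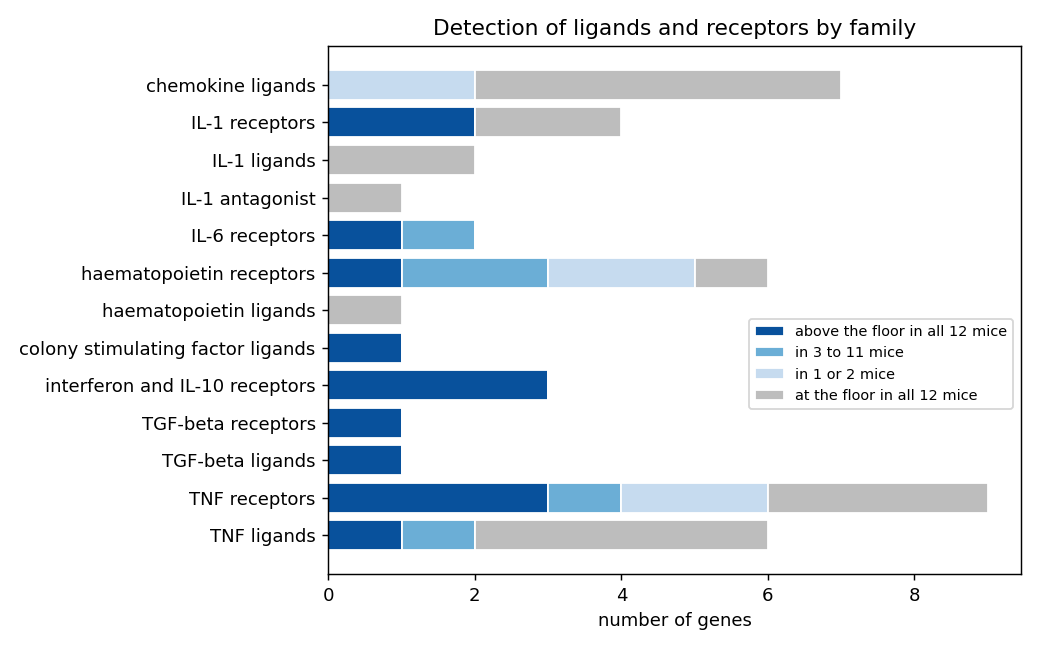
Number of member genes (x axis) by family and role (y axis), coloured by the number of mice in which the gene exceeded the floor of 20 normalized counts; chemokine receptors are not drawn. The chemokine, IL-1 and haematopoietin ligand rows hold no gene above the floor in 3 or more mice, while each receptor row drawn does.

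By family, the 7 chemokine ligands gave no gene above the floor in 3 mice. Ccl2, Ccl4, Ccl5, Ccl7 and Cxcl9, which attract monocytes and T cells, were at the floor in every mouse. Ccl3 reached 25.02 in mtOGG1 female 2 and 20.1 in mtOGG1 male 3. Cxcl10, an interferon-induced chemokine, reached 23.6 in mtOGG1 female 3 and 26.02 in control female 3. Ccr2, the receptor of inflammatory monocytes, was at the floor in every mouse too.

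In the IL-1 family the agonists Il1a and Il1b, the antagonist Il1rn, the decoy receptor Il1r2 and the IL-36 receptor gene Il1rl2 were at the floor in all 12 mice. The signalling receptor Il1r1 and its co-receptor Il1rap exceeded it in all 12. In the TNF family Tnf, Tnfsf4, Tnfsf8 and Tnfsf13b were at the floor in every mouse, as were the lymphocyte receptors Tnfrsf4, Tnfrsf13c and Tnfrsf17. Tnfrsf1a (TNF receptor 1), Tnfrsf12a (the TWEAK receptor Fn14) and Tnfrsf25 (death receptor 3) were above it in all 12 mice, and Tnfrsf1b (TNF receptor 2) in 7. Tnfrsf10b, a TRAIL receptor, had 28.1 in mtOGG1 female 1 and 20.3 in control male 1, and the soluble decoy receptor Tnfrsf11b 22.6 in control female 3 and 20.3 in control male 1.

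Among the haematopoietin receptors Csf3r, the receptor of granulocyte colony stimulating factor, was above the floor in all 12 mice, Il15ra in 9 and Il2rg, the common gamma chain, in 5. Csf2rb and Il21r exceeded it in control male 2 alone, at 24.9 and 23.05, and Il3 and Il3ra in none. Ifnar1 and Ifnar2, the chains of the type I interferon receptor, and Il10rb, a shared chain of the IL-10 family receptors, were above the floor in all 12 mice. So was Il6ra, the IL-6 receptor, and Osmr, the oncostatin M receptor, was above it in 11. Ligands of these receptors were not analysed here, except Il3.

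Whether receptors were read without their ligands was followed in 101 known ligand and receptor pairs, of which 23 had both genes in the table. The pairs include the non-member genes Csf1r, Lta, Ltb and Ltbr. They leave out the non-members Cx3cl1 and Cx3cr1, which both stood above the floor in every mouse (637 to 1172 and 364 to 553). A receptor is counted once for each partner, so that Il1r1 and Tnfrsf1a are counted more than once. In 11 of the 23 the receptor exceeded the floor in at least 3 mice and the ligand, or the antagonist Il1rn, did not. Among these were Tnfrsf1a with Tnf and Lta, Tnfrsf1b with Tnf, Ltbr with Ltb, Il1r1 with Il1a, Il1b and Il1rn, and Il1rap with Il1b. Both partners exceeded it in 3 pairs: Csf1 with Csf1r, Tgfb1 with Tgfbr1 and Tnfsf12 with Tnfrsf12a. The ligand alone did so in 1 pair, Tnfsf10 with Tnfrsf10b, and neither partner in 8. That 1 pair rests on the cutoff of 3 mice, with Tnfsf10 above the floor in 3 and Tnfrsf10b in 2.

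**Figure D2:**
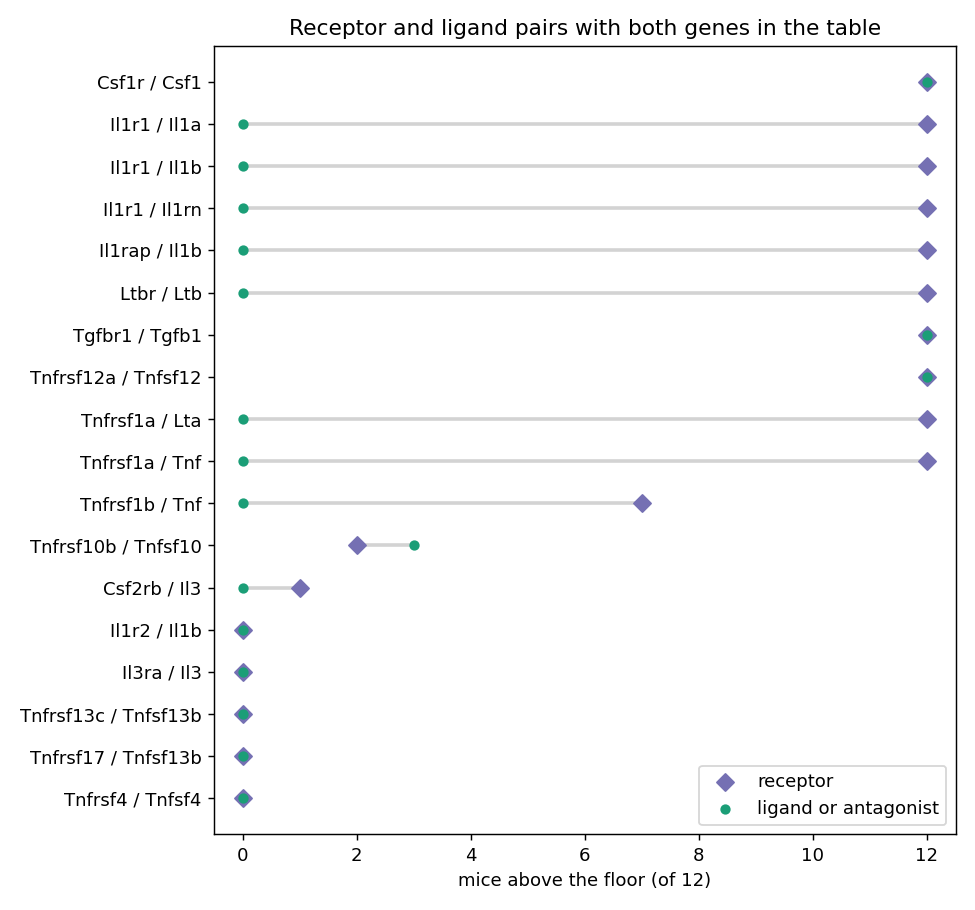
Number of mice (x axis, of 12) in which the receptor (diamonds) and the ligand or antagonist (circles) exceeded the floor, for pairs with both genes in the table (y axis, receptor first), chemokine receptors aside. Tnfrsf1a, Il1r1, Il1rap and Ltbr lie at 12 mice and Tnfrsf1b at 7, with their partners at 0.

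Promoters of a few undetected ligands and detected receptors are shown as examples. For promoters, undetected stands for above the floor in fewer than 3 mice and detected for at least 3. Cxcl10, above the floor in 2 mice, is thus among the undetected. The 2 undetected ligands printed were picked by name. Both hold the letters TATAAA, as did 4 of the 9 undetected ligands with a window, so they do not stand for all of them. RefSeq windows (build GRCm38.p6) from 250 bases before to 50 bases after the start were found for 35 of the 46 members, and the 100 bases before the start are printed 5′ to 3′ for 2 ligands at the floor (Tnf, chr17:35202008-35202107, minus strand; Il1b, chr2:129371140-129371239, minus strand), for receptors of each (Tnfrsf1a, chr6:125349623-125349722, plus strand; Il1rap, chr16:26581605-26581704, plus strand) and for a detected ligand (Csf1, chr3:107760470-107760569, minus strand). Capitals mark the TATA box letters TATAAA.
Tnf: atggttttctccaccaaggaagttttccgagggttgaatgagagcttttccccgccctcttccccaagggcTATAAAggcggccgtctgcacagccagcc
Il1b: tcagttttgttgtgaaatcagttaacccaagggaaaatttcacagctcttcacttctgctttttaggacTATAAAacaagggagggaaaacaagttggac
Tnfrsf1a: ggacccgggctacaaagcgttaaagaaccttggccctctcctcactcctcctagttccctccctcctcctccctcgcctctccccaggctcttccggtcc
Il1rap: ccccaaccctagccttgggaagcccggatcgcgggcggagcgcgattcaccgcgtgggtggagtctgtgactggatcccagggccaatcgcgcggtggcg
Csf1: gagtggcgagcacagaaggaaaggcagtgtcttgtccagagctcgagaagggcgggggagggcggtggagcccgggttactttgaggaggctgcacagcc

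The letters TATAAA began 29 bases before the start of Tnf and 31 bases before that of Il1b, and none lay in the windows of Tnfrsf1a, Il1rap and Csf1. Searched on both strands of the whole 300-base windows, they were found in 4 of 9 ligands above the floor in fewer than 3 mice (Tnf, Il1a, Il1b and Cxcl9) and in 0 of 3 ligands and 0 of 14 receptors above it in at least 3 mice. They were found in 2 of 8 receptors above it in fewer than 3 mice (Il1rl2 and Tnfrsf17), and in 15.7% of the 27025 genes with a window. The 35 members had 42 windows, and a motif was counted for a gene if any of its windows held it. For CG dinucleotides a gene with several windows was given the highest number. The number of CG dinucleotides had a median of 16.5 in the 14 detected receptors and 16 in the 3 detected ligands. It was 6.5 in the 8 undetected receptors and 6 in the 9 undetected ligands, beside 8 over all genes with a window. The ranges overlapped, with 3 to 34 in detected and 1 to 35 in undetected receptors. In ligands they were 6 to 30 in detected and 3 to 11 in undetected genes. The difference of these medians was not tested. Of 4 other motifs searched in the same way, the AP-1 letters TGANTCA were in 4 of 9 undetected and 0 of 3 detected ligands, and in 0 of 8 undetected and 2 of 14 detected receptors (8.97% of all genes). The interferon response element was in 2 of 9 undetected and 0 of 3 detected ligands, and in 1 of 8 undetected and 2 of 14 detected receptors (3.99%). The NF-kB site was in 0 of 9 undetected and 1 of 3 detected ligands, namely Csf1, and in 0 of 8 undetected and 1 of 14 detected receptors (1.89%). TGACGTCA, the cyclic AMP response element, was in no member with a window (2.03%). The motifs were chosen with the detection known, and a match is not a site. A gene without a match may still have a site in other letters or outside the window.

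The detected members differed in how far they ranged over the mice. Il1r1 ran from 33.0 to 81.1 over all 12 mice (coefficient of variation 26.3%) and Tnfrsf25 from 20.1 to 47.6 (28.2%). Ifnar1 lay between 259 and 366 in mtOGG1 mice and between 267 and 317 in control mice, the lowest coefficient of variation (9.06%) among the 15 members above the floor in every mouse. Csf1 ranged from 150 to 222 in mtOGG1 mice and from 142 to 196 in control mice, Ifnar2 from 123 to 144 in mtOGG1 mice and from 112 to 164 in control mice, and Il10rb from 92.3 to 129 in mtOGG1 mice and from 92.7 to 141 in control mice. Tgfbr1 ranged from 264 to 373 in mtOGG1 mice and from 239 to 346 in control mice. Its coefficient of variation was 2.39 times that of counting error alone, the highest ratio of the 15 members, whereas that of Csf3r was 0.951 times. Counting error alone gave coefficients of variation of 5.84% (Ifnar1) to 19.0% (Tnfrsf25), which bounds the differences that could be seen in the low members.

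**Figure D3:**
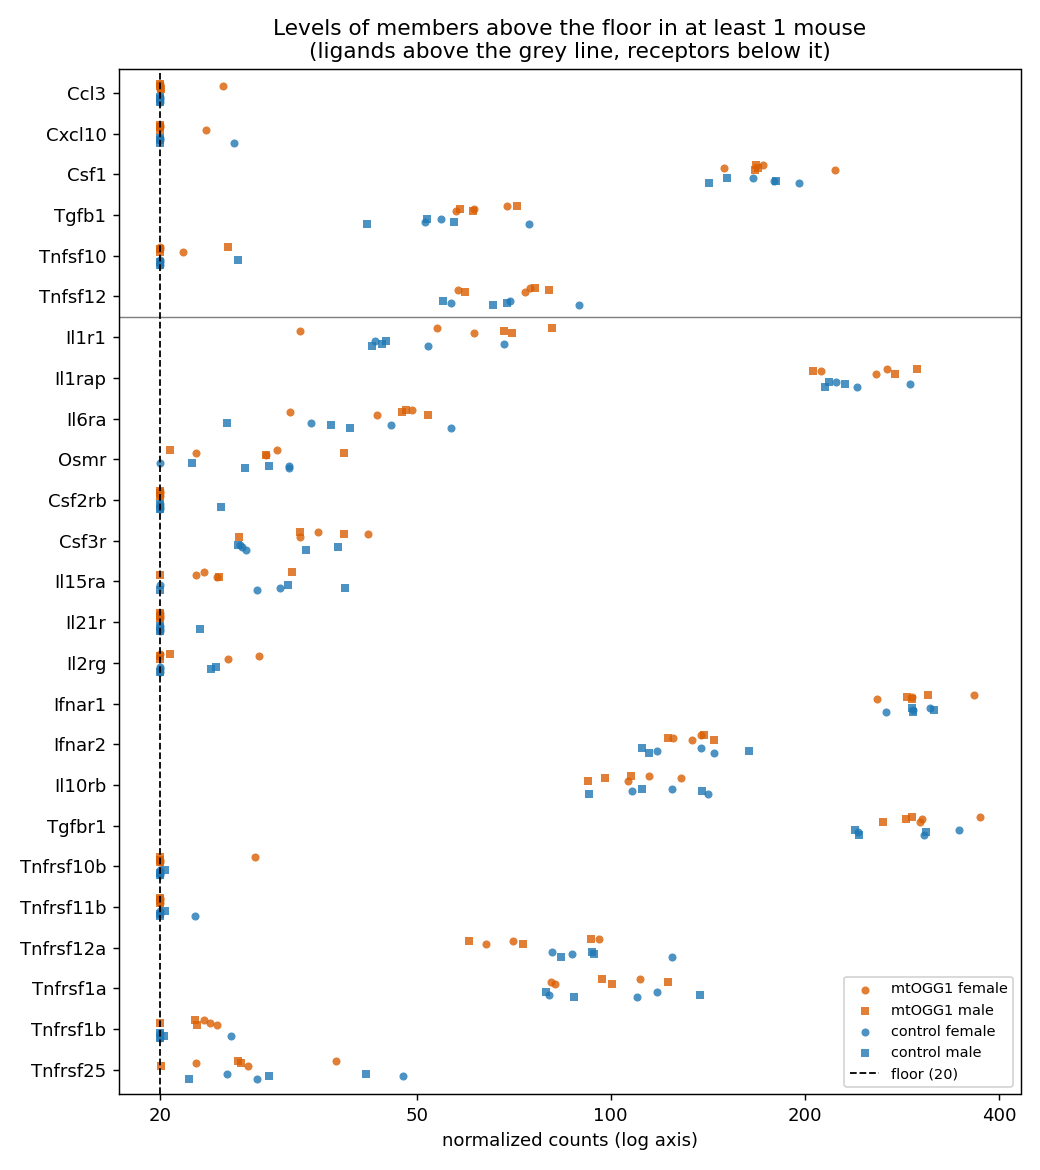
Normalized counts (x axis, log scale) of members above the floor in at least 1 mouse, chemokine receptors aside, with 1 point per mouse (mtOGG1 orange above control blue, females circles, males squares) and the floor of 20 as a dashed line. The mtOGG1 and control points overlap for every member drawn.

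The first comparison set the 6 mtOGG1 mice against the 6 control mice over both sexes, the contrast closest to the title's question of age-associated neuroinflammation. None of the 20 members tested (those above the floor in at least 3 mice) passed. Only 4 of the 18 ligands (Csf1, Tgfb1, Tnfsf12 and Tnfsf10) were among them, and the other 14, Tnf, Il1a and Il1b included, were above the floor in too few mice to be tested. In limma with Benjamini-Hochberg adjustment over 608 genes, 0 of the 20 members had an adjusted p under 0.05, while 1.32% of all genes did. At an unadjusted p under 0.05 the members called were again 0, against 11.7% of all genes (without moderation of the variances the linear model called 0 of the 608 genes). No member separated the 6 mtOGG1 mice from the 6 control mice without overlap in either direction (0.822% of all genes did so lower and 0% higher).

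The smallest p belonged to Tnfrsf12a, an injury-inducible receptor. It had 60.3, 71.8 and 96.0 as lowest, median and highest level in mtOGG1 mice, against 81.2, 90.4 and 124 in control mice. The genotypes overlapped, with 4 of the 6 mtOGG1 mice below every control mouse. On the log2 scale mtOGG1 over control was -0.31, with 95% limits of -0.62 and 0.00 and an adjusted p of 0.423 by limma. Its ligand Tnfsf12 averaged 70.4 ± 9.32 in mtOGG1 mice and 67.6 ± 12.4 in control mice (SD, n = 6 each), a log2 fold change of 0.07 with an interval from -0.22 to 0.35.

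The log2 fold changes of the next members by p were 0.28 for Il1r1, 0.22 for Csf3r, 0.21 for Tgfb1, 0.21 for Il6ra, -0.24 for Tnfrsf25, 0.12 for Tnfrsf1b and -0.14 for Il10rb (limma, adjusted p from 0.503 to 0.674). With 1 mouse left out the values ran from 0.12 to 0.30 for Il6ra, -0.35 to -0.11 for Tnfrsf25 and -0.21 to -0.07 for Il10rb, and with Slc17a6 as a covariate those of Il6ra and Tgfb1 were 0.04 and 0.09. The intervals of the interferon receptor chains were narrow, from -0.17 to 0.21 for Ifnar1 and from -0.20 to 0.27 for Ifnar2. That of Csf1 ran from -0.18 to 0.27 and that of Tgfbr1 from -0.10 to 0.34. That of Tnfrsf1a was wider, from -0.36 to 0.30. Tnfrsf1b exceeded the floor in 5 of 6 mtOGG1 mice and 2 of 6 control mice, none of them above 25.8. Il15ra did so in 5 and 4 mice and Il2rg in 3 and 2, of 6 mtOGG1 and 6 control mice each.

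The members' median log2 fold change was 0.05, beside -0.01 over all 608 genes tested, with 15 of 20 members above 0 where 47.5% of all genes were. Slc17a6, the vesicular glutamate transporter typical of thalamic neurons, lay between 403 and 1597 in mtOGG1 mice and between 195 and 1208 in control mice. With it as a covariate the members' median was 0.01, beside -0.03 over all genes, with 10 of 20 members and 40.5% of all genes above 0. With Ttr, a choroid plexus transcript, as a covariate 11 of 20 members and 44.6% of all genes were above 0, and under both covariates 0 members passed. In total the number of members above the floor in a mouse was 16 to 21 in mtOGG1 mice and 15 to 21 in control mice.

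**Figure D4:**
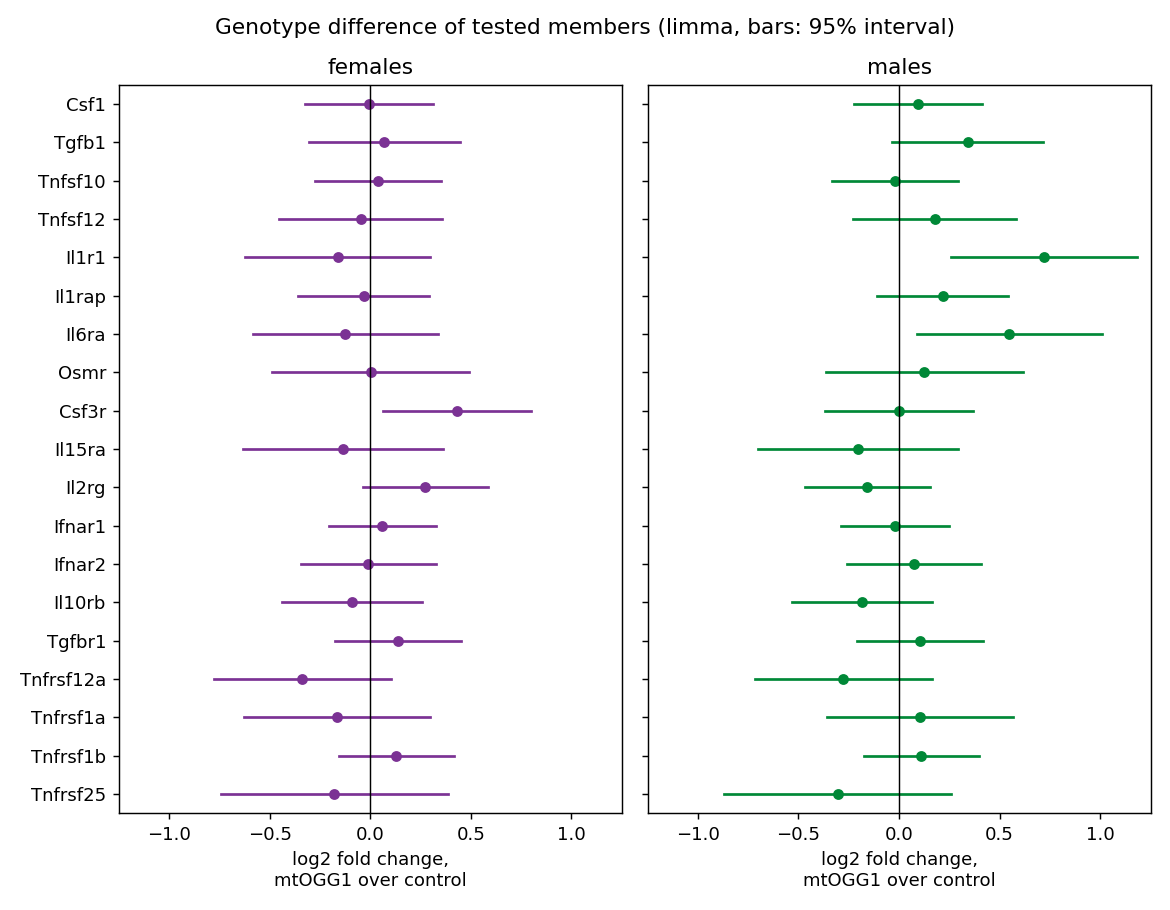
Log2 fold change of mtOGG1 over control (x axis) of the tested members other than chemokine receptors (y axis) in females (left) and males (right), with points for the limma estimate and bars for its 95% interval. The intervals exclude 0 for Csf3r in females and for Il1r1 and Il6ra in males, before adjustment over all genes.

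Within females 0 of 20 members passed the limma test, beside 0% of all genes. Csf3r, carried by granulocytes and also by microglia, had levels of 35.1, 42.1 and 33.0 in mtOGG1 females, against 26.6, 26.8 and 27.1 in control females. All 3 mtOGG1 females lay above all 3 control females, as 1 of 20 members did beside 1.81% of all genes; 0 members lay below, beside 3.45%. This was 0.43 on the log2 scale, with 95% limits of 0.06 and 0.80 and an adjusted p of 1 by limma. The unadjusted p under 0.05 was met by 1 member, Csf3r, and by 2.96% of all genes. In males Csf3r had 33.0, 38.6 and 26.5 in mtOGG1 mice, against 26.4, 37.8 and 33.6 in control mice, which overlapped, and the difference between the sexes was 0.43, with limits of -0.09 and 0.95 and an adjusted p of 0.959 by limma.

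The neutrophil marker Ly6g was at the floor in all 12 mice, as were the T cell, B cell and NK cell markers of the panel (4, 3 and 4 genes). The summed level of 6 microglia markers was 1459 to 1938 in mtOGG1 females and 1435 to 1805 in control females. In bulk tissue, fewer cells of a type and less RNA per cell cannot be told apart. Other members of small p in females were Il2rg at 0.27, Tnfrsf12a at -0.34 and Tnfrsf1b at 0.13 (each limma adjusted p = 1). With 1 mouse left out these ran from 0.17 to 0.41 for Il2rg, -0.51 to -0.15 for Tnfrsf12a and 0.07 to 0.25 for Tnfrsf1b. Il2rg read 28.4 and 25.4 in mtOGG1 females 2 and 3 and was at the floor in mtOGG1 female 1 and all control females.

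Within males 0 of 20 members passed either, beside 0.987% of all genes. The IL-1 receptor gene Il1r1 had the smallest p, with 81.1, 68.2 and 70.3 in mtOGG1 males, against 44.8, 44.3 and 42.6 in control males. Every mtOGG1 male lay above every control male. On the log2 scale this was 0.72, with 95% limits of 0.26 and 1.18 and an adjusted p of 0.142 by limma. In females the same gene had 53.8, 33.0 and 61.3 in mtOGG1 mice, against 43.1, 68.4 and 52.04 in control mice, and these groups overlapped.

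The IL-6 receptor gene Il6ra had 48.1, 47.5 and 52.1 in mtOGG1 males, against 25.4, 36.9 and 39.4 in control males, again without overlap, 0.55 on the log2 scale with limits of 0.09 and 1.01 and an adjusted p of 0.249 by limma. Tgfb1 had 71.6, 58.3 and 61.2 in mtOGG1 males, against 51.9, 57.2 and 41.8 in control males, without overlap, 0.34 on the log2 scale with limits of -0.03 and 0.72 and an adjusted p of 0.424 by limma. These 3 of the 20 members separated higher, beside 5.76% of all genes, and 0 lower, beside 12%. An unadjusted p under 0.05 was met by 2 members, Il1r1 and Il6ra, and by 13.3% of all genes. Il1rap, which pairs with Il1r1, had 299, 206 and 276 in mtOGG1 males, against 218, 230 and 215 in control males, with overlap, 0.22 on the log2 scale (adjusted p = 0.596 by limma). That value ran from 0.11 to 0.38 with 1 mouse left out and was 0.09 with Slc17a6 as a covariate. Tnfrsf12a stood at -0.28 on the log2 scale in males (adjusted p = 0.627 by limma), and between -0.44 and -0.13 with 1 mouse left out.

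**Figure D5:**
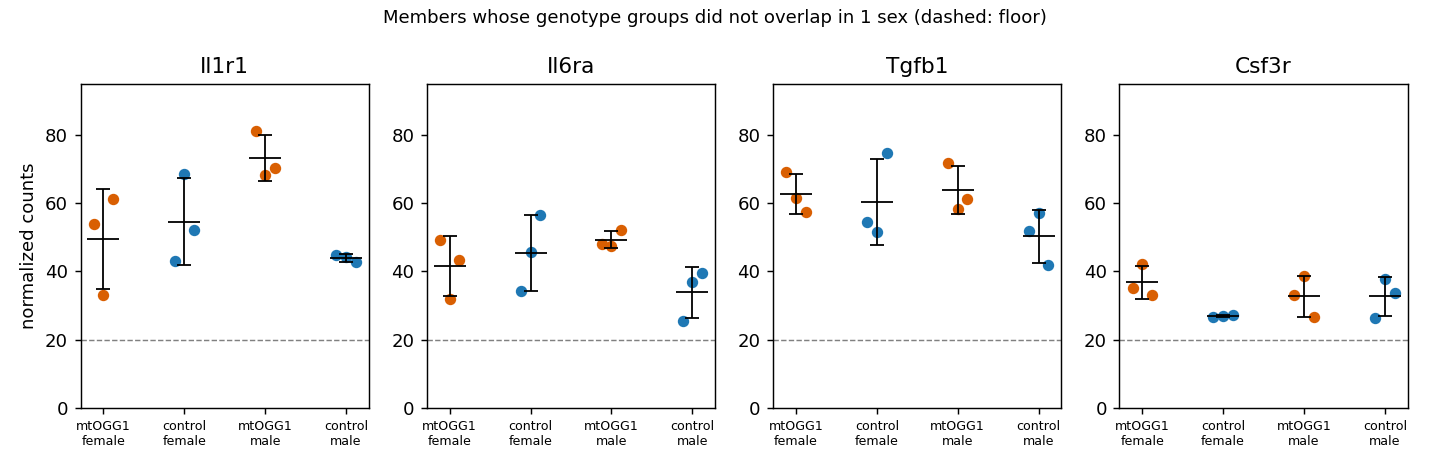
Normalized counts (y axis) of Il1r1, Il6ra, Tgfb1 and Csf3r in each mouse (points) of the 4 groups (x axis), with group means and SDs as black bars (n = 3 each) and the floor as a dashed line. For Il1r1, Il6ra and Tgfb1 the groups separate in males, and for Csf3r in females, while none passed the adjusted test.

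Summed markers of microglia, oligodendrocytes and endothelium separated the male groups as well. Ttr and Slc17a6 overlapped, though both had higher means in mtOGG1 males. For Ttr these were 1353 ± 176 in mtOGG1 males and 627 ± 779 in control males, with control male 2 alone in the mtOGG1 range. For Slc17a6 they were 1077 ± 611 in mtOGG1 males and 411 ± 274 in control males (SD, n = 3 each). Ttr lay between 1173 and 1525 in mtOGG1 males and between 35.6 and 1510 in control males, and Slc17a6 between 403 and 1597 in mtOGG1 males and between 222 and 726 in control males. The summed level of the 6 microglia markers was 1608 to 1701 in mtOGG1 males and 1333 to 1552 in control males, and that of 6 oligodendrocyte markers 13384 to 18728 in mtOGG1 males and 9617 to 13032 in control males. The sum of 5 endothelial markers was 440 to 491 in mtOGG1 males and 529 to 606 in control males, while the sums of the astrocyte and neuron markers overlapped. With Slc17a6 as a covariate the male log2 fold changes were 0.59 for Il1r1, 0.33 for Il6ra and 0.19 for Tgfb1. With Ttr as a covariate they were 0.64 for Il1r1, 0.34 for Il6ra and 0.27 for Tgfb1, and none of them passed with either covariate. The part of the microglia, oligodendrocyte and endothelial markers was not tested.

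The interaction asked whether the genotype difference differed between the sexes. For Il1r1 it was -0.88, female minus male, with limits of -1.54 and -0.23 and an adjusted p of 0.892 by limma. For Il6ra it was -0.67, with limits of -1.32 and -0.02 and an adjusted p of 0.932 by limma. Il2rg had 0.43 (limma, adjusted p = 0.932). None of the 20 members passed, nor did any gene of the table (0%), and an unadjusted p under 0.05 was met by 2 members and 4.77% of all genes. The separation of Il1r1 and Il6ra in males is therefore not shown to be particular to males.

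Females set against males over both genotypes gave 0 of 20 members past the limma test, beside 0.658% of all genes, and 0 at an unadjusted p under 0.05, beside 6.41%. No member separated the sexes without overlap, beside 0.164% of all genes higher and 0.493% lower in females. The smallest p was that of Tgfbr1, with 242, 305 and 373 as lowest, median and highest level in females, against 239, 275 and 308 in males, a log2 difference of 0.19 (limma, adjusted p = 0.829). Il10rb had 0.18, Csf1 0.14, Tnfrsf1b 0.12 and Il1r1 -0.16, and with 1 mouse left out Csf1 ran from 0.07 to 0.21 and Il1r1 from -0.25 to -0.03. Scaling on the positive controls moved the median of all genes by about as much, from 0.04 to -0.15, and the values of Tgfbr1, Il10rb, Csf1 and Tnfrsf1b were then -0.01, -0.01, -0.05 and -0.08.

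Genes that carry the receptors' signals gave the same count of 0. Of the TNF receptor signal transducers 19 were tested and 0 passed in either direction over both sexes, with a median log2 fold change of -0.07. The smallest p belonged to Chuk, an IkB kinase, at -0.14 and Tradd, the TNF receptor 1 adaptor, at 0.26. Tradd differed between the sexes, with 0.70 in males (limma, adjusted p = 0.114). Its interaction, female minus male, was -0.88 (limma, adjusted p = 0.892), and neither value passed. Of the IL-1 receptor transducers 8 were tested and 0 passed, with a median of -0.06, Mapk14 at -0.12 and Myd88, the IL-1 receptor adaptor, at -0.16. Of the JAK-STAT genes 4 were tested and 0 passed, with a median of -0.07 and Socs3, a feedback inhibitor, at -0.11. Of the chemokine signalling genes 7 were tested and 0 passed, with a median of -0.05, and their smallest p belonged to the neuronal chemokine Cx3cl1 at -0.40 (limma, adjusted p = 0.146) and to Dock2 at -0.37 (limma, adjusted p = 0.401). These medians stand beside one of -0.01 over all genes, and the TGF-beta list had 0 tested genes.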

How the data were processed

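The table deposited by the authors holds normalized signal values for 770 genes and 14 control rows in 12 samples, made with nCounter Advanced Analysis per the series' design text. The sources used here do not say what the scaling factors were based on. From the values, 100% of those above 20 were whole counts times the sample's factor within 0.01, lower values were set to 20, and control rows were unscaled. The floor leaves no complete count table, so no count model was used.

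Genes above 20 in at least 3 samples (608) were fitted as log2(value + 1) in limma 3.58.1 (R 4.3.3), with 1 mean per group and empirical Bayes variances that follow the mean level. P-values were adjusted by Benjamini-Hochberg within each of 5 contrasts, at a threshold of 0.05. Fold changes near the floor are understated. The script was tested on simulated data. Replicates of a group differed by at least 2.47 in chi-square per degree of freedom (12 pairs), more than counting error alone gives. This cannot tell separate mice from separate preparations of 1 mouse. All 46 member symbols matched RefSeq. The members, pairs, lists and motifs were chosen with earlier results of these data known. Members were named by role, with values for the 8 of smallest p over both sexes, 5 in other contrasts and 2 genes per signalling list; some that the rule names are not reported here, but remain in the counts. Alternatives covered pseudocount, filter, scaling, variance model, replicate block, covariates and left-out mice; the Ttr covariate was added after seeing the data. Figures used matplotlib 3.10.9.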

Additional observations from a re-analysis of the deposited data

Results flagged for a closer look

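Over 20 members in the 2 genotype groups of 6 mice, 40 groups were examined and 8 held a mouse farther from the others than Dixon's limit for the group's range, where chance gives about 1 in 20 for untied values. That rate does not apply to Tnfsf10 and to Tnfrsf1b in control mice, where most mice were tied at the floor. In mtOGG1 mice these were Csf1 in mtOGG1 female 3 at 222.48 (next mouse 172.01), Tgfbr1 in mtOGG1 female 1 at 373.27 (next 303.67) and Tnfsf10 in mtOGG1 male 1 at 25.45 (next 21.68). In control mice they were Tnfrsf12a in control female 3 at 124.44 (next 94.04) and Tnfsf10 in control male 1 at 26.45, with the other control mice at the floor. Control female 2 was the highest control mouse for Il1r1 at 68.4 (next 52.04), Il1rap at 291.46 (next 240.96) and Tnfrsf1b at 25.78 (next 20.28). No member had all mtOGG1 mice above the control mice in one sex and all below in the other.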

How the results depend on the processing

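No member passed under any of the 24 alternatives in any contrast, and the smallest adjusted p of a member was 0.0647, for Il1r1 in males without mtOGG1 female 2. The variance models, the filters and the replicate block leave a log2 fold change as it was. Leaving out a mouse of the other sex does the same to a comparison within 1 sex. Many of the 658 values of named members under alternatives therefore could not change. Of all 658, 654 kept their direction. The 4 others were the sex differences of Tgfbr1 (-0.00584), Il10rb (-0.0148), Csf1 (-0.0532) and Tnfrsf1b (-0.0762) with positive control scaling, which moved all genes by a similar amount. With 1 mouse left out the male values ran from 0.65 to 0.77 for Il1r1, 0.36 to 0.66 for Il6ra and 0.22 to 0.44 for Tgfb1, and the female value of Csf3r from 0.33 to 0.50. Counts over all genes moved more. Over both sexes the 8 calls became 5 with pseudocounts of 5 and 20 and with the Ttr covariate, 3 with a mean of at least 50, 0 without the filter and 0 in the ordinary linear model, and 3 (without mtOGG1 female 3 or control male 2) to 12 (without mtOGG1 male 2) with 1 mouse left out. In males the 6 calls became 12 with median centring and without a trend, 11 with positive control scaling and robust moderation, 0 without the filter and 0 in the ordinary linear model, and 4 to 19 with 1 mouse left out, with 19 without mtOGG1 female 3, 14 without mtOGG1 male 2 and 10 without mtOGG1 female 1 or control female 2. With 1 mouse left out there were 0 to 2 calls in females, 0 to 1 for the interaction and 2 to 5 between the sexes, where both the fit without the filter and the ordinary linear model gave 2. The cause was not tested, except that dropping the filter adds genes at the floor. With the replicate block the calls were 7 over both sexes, 0 in females, 8 in males, 0 for the interaction and 4 between the sexes. Same-numbered mice correlated between -0.34 and 0.56 in their deviations from group means, over 0.1 in 8 of 18 pairs. Differently numbered mice of 2 groups reached -0.58 and 0.63. The labels do not say whether a number stands for anything shared, and these correlations cannot decide it. The 16 receptors above the floor were 8 at a threshold of 50 and 16 with any mouse left out. The 4 ligands were 3 at a threshold of 50 and 3 to 4 with 1 mouse left out. Counts of 20 to 48 behind Csf3r and Tnfrsf25 limit what could be seen.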
